A study of Mus musculus with 6 samples.

Results

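The genes examined here encode the bHLH and LIM partners of the SCL complex, a group of transcription factors that assembles on DNA in blood and endothelial cells. The members were chosen by name and not by a rule on measured values, but with earlier results of these data known. They are the 8 genes *Tal1*, *Lyl1*, *Lmo2*, *Ldb1*, *Tcf3*, *Tcf4*, *Tcf12* and *Cbfa2t3*, of 24062 genes counted in each library, and all 8 were among the 12688 genes with enough counts to be tested. Their RNA was compared between 2 fractions of cells sorted from the aorta-gonad-mesonephros (AGM) region of mouse embryos at embryonic day 10.5. The embryos were of the strain C57BL/6JOlaHsd and carried, on 1 *Gata2* allele, an IRES-Venus reporter behind the *Gata2* coding sequence, so that Venus fluorescence follows *Gata2* expression while both alleles still make Gata2. All cells were sorted as positive for CD31, a surface protein of endothelium and early blood cells, and for ckit, the receptor of stem cell factor. The fractions were gated apart by Venus level: Vmed (medium, labelled G2Vi) and Vhigh (high, labelled G2Vh), with 3 libraries each, numbered 1 to 3 in both. The samples are bulk RNA from pools of sorted cells, so fewer cells of a type and less RNA per cell cannot be told apart in any value that follows. The labels do not say which embryos or sorts the replicates came from, and p-values measure the spread between these libraries only.

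In the SCL complex, a tissue-restricted bHLH protein, TAL1 (also called SCL) or its close relative LYL1, pairs with a broadly expressed bHLH partner, an E protein, and the pair binds the E-box, the sequence CANNTG. The LIM-only adaptor LMO2 bridges this pair to LDB1, a protein that binds itself and can join distant complexes, and often to a GATA factor on a neighbouring GATA motif. CBFA2T3, also called ETO2 or MTG16, binds to E proteins and brings repressing cofactors into the complex. *Tal1* and *Lmo2* are needed for the first blood cells of the embryo. ID proteins pair with E proteins but cannot bind DNA, and so keep them from the complex. The symbols *Tcf3* and *Tcf4* here are the E protein genes also known as E2A and E2-2, not the HMG-box genes that share these names in older use.

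The total of gene counts was between 8296831 and 12035206 per library, and values are given as CPM, counts scaled by this total. At these depths 3 counts, taken as the smallest number to be shown, are between 0.249 and 0.362 CPM, which covers counting error only. The sort markers were found in each library, with *Pecam1* (which encodes CD31) between 118 and 570 CPM and *Kit* between 59.1 and 521 CPM. Replicate 3 of both fractions stood apart from the other libraries. Its share of reads falling outside annotated genes was 15.5% in Vmed and 13.6% in Vhigh, and between 39.3% and 60.9% in the other 4 libraries. Its share of the ribosomal RNA precursor gene *Rn45s* was 10.5% in Vmed and 7.47% in Vhigh, and at most 1.53% elsewhere.

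The promoters of *Tal1*, *Lyl1* and *Cbfa2t3* are shown because these genes, with *Lmo2*, were higher in Vhigh than in Vmed in 3 of 3 same-numbered pairs of libraries. Each sequence runs from 250 bases before to 50 bases after the first annotated start, read on the strand of the gene (RefSeq, GRCm38.p6), and lies at chr4:115056176-115056475 on the plus strand for *Tal1*, chr8:84701207-84701506 on the plus strand for *Lyl1* and chr8:122699060-122699359 on the minus strand for *Cbfa2t3*. Capitals mark the E-box CANNTG and the GATA motif GATAA on either strand, the latter read as TTATC where it lies on the opposite strand.
Tal1: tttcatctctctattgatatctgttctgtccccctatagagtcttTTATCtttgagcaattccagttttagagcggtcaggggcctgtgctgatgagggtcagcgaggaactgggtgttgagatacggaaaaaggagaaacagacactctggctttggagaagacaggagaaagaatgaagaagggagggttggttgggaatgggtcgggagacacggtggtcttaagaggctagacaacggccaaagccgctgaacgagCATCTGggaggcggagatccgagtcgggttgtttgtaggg
Lyl1: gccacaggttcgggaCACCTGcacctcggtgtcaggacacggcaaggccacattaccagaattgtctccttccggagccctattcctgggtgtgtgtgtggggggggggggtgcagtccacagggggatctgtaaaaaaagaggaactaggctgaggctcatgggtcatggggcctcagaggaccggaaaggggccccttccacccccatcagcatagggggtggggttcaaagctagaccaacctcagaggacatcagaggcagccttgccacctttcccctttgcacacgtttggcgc
Cbfa2t3: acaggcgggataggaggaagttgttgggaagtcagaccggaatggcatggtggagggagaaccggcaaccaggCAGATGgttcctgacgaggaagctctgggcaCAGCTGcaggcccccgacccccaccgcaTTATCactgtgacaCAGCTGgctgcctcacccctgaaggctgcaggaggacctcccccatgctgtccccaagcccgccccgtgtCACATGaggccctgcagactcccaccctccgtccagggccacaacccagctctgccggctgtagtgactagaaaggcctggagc
The *Tal1* window held 1 E-box at position 11, counted from 1 at the start, and 1 GATA motif at position -205. The *Lyl1* window held 1 E-box at position -235 and no GATAA. The *Cbfa2t3* window was the richest of the 3, with E-boxes at -177, -146, -104 and -34 and a GATA motif at -118, between the second and the third E-box. Windows of this length were found for 6 of the 8 genes, 12 in all, since *Tal1*, *Cbfa2t3*, *Tcf12* and *Ldb1* have several starts. Of these windows 9 held CANNTG, which 72.3% of 32851 RefSeq windows hold, and 3 held GATAA, which 25.4% hold. The form CAGATG, which TAL1 and E protein pairs are known to prefer, was in 2 of the 12, the windows of *Tal1* and *Cbfa2t3* shown here, and in 17.2% of all windows. The joined E-box and GATA sequence CTGNNNNNNNNGATAA was in 0 of the 12 and in 0.618% of all. A match in letters does not show that a factor binds there. In the GENCODE annotation of GRCm38, *Lmo2*, *Ldb1*, *Tcf3* and *Tcf12* lie on chromosome 2 from 103957986 to 103981878 (*Lmo2*), chromosome 19 from 46031570 to 46045214 (*Ldb1*), chromosome 10 from 80409514 to 80433647 (*Tcf3*) and chromosome 9 from 71842688 to 72111871 (*Tcf12*).

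The first comparison asked which members of the complex differ in RNA level between cells with medium and high *Gata2* reporter. In the quasi-likelihood test of edgeR, with p-values adjusted over all tested genes by the Benjamini-Hochberg method, 0 of the 8 members and 0% of the 12688 tested genes passed an adjusted p of 0.05, and the smallest adjusted p of any gene was 0.66. The adjusted p of each member was 1.0 in this test. Before adjustment, a p under 0.05 in this test was reached by 259 genes (2.04%) and by 0 members. With the replicate number as a block, the same kind of test gave *Cbfa2t3* an unadjusted p of 0.031 and *Tcf4* 0.044. In that fit 528 of 12688 genes had an unadjusted p under 0.05, and the adjusted p of both members was 0.99. The likelihood ratio and exact tests of edgeR, DESeq2 and a fit with the replicate number as a block called between 0 and 74 genes, none of them a member.

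The direction of the values was nevertheless not the same for all members. The tissue-restricted members *Tal1*, *Lyl1* and *Lmo2* and the cofactor *Cbfa2t3* had higher means in Vhigh. *Tcf4* and *Tcf12* had lower means, and *Ldb1* and *Tcf3* turned in direction when a single library was left out. In all, 4 of 8 members were higher in Vhigh in 3 of 3 pairs, as were 15.2% of tested genes, and 1 of 8 was lower in 3 of 3 pairs, as were 15.4%. The median log2 fold change of Vhigh over Vmed was 0.62 over the 8 members and -0.02 over all tested genes. Because members were picked as known partners and not drawn at random, these shares are a description.

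**Figure D1:**
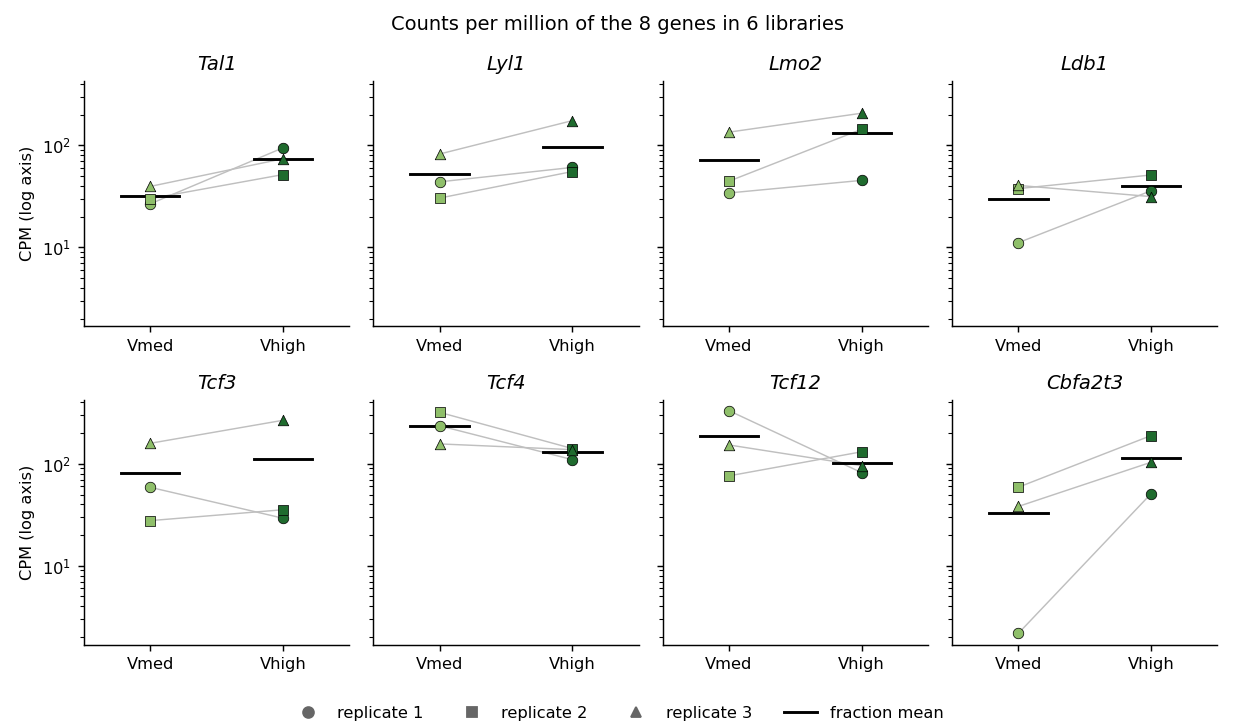
CPM (log axis) of each of the 8 genes in the Vmed and Vhigh libraries, with replicate 1 as circles, replicate 2 as squares and replicate 3 as triangles, grey lines joining libraries of the same number and black bars at the mean of each fraction. *Tal1* in Vhigh lies between 51.7 and 94.5 CPM, above all Vmed libraries, *Tcf4* in Vhigh lies below all Vmed libraries, and the other 6 genes overlap.

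*Tal1* encodes the bHLH factor that names the complex. It was at 26.7, 30.0 and 39.5 CPM in Vmed replicates 1, 2 and 3 and at 94.5, 51.7 and 73.9 CPM in Vhigh replicates 1, 2 and 3. Every Vhigh library was above every Vmed library, which held for 4.15% of tested genes and for no other member. The mean was 32.1 ± 6.7 CPM in Vmed and 73.3 ± 21.4 CPM in Vhigh (SD, n = 3). The log2 fold change was 1.19 with a standard error of 0.74 in the quasi-likelihood fit, with an approximate 95% interval from -0.45 to 2.84, so that both no difference and a rise of several fold are within its error. An exact two-sided permutation test gave p = 0.1, the smallest that 3 libraries against 3 allow. The value was 0.89 without Vhigh replicate 1, the highest library, and *Tal1* was the member with the narrowest spread within Vmed, at 1.48-fold between its lowest and highest library.

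*Lyl1* encodes the bHLH protein most like TAL1 and can stand in for it in part of the blood lineage. It was at 43.8, 30.4 and 82.1 CPM in Vmed and at 60.7, 55.3 and 174.6 CPM in Vhigh. Replicate 3 was the highest library in both fractions, and the fractions overlapped. The mean was 52.1 ± 26.9 CPM in Vmed and 96.9 ± 67.4 CPM in Vhigh (SD, n = 3), and the fit gave a log2 fold change of 0.87 (standard error 0.75). Without Vhigh replicate 3 it was 0.17.

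*Lmo2*, the LIM-only bridge, was also highest in replicate 3 of both fractions. It was at 34.1, 44.5 and 134.6 CPM in Vmed and at 45.3, 143.8 and 206.5 CPM in Vhigh. From 3 libraries each, the fitted log2 fold change was 0.83 (standard error 0.75), with means of 71.1 ± 55.3 and 131.9 ± 81.3 CPM (SD, n = 3). Each Vhigh library lay above the Vmed library of its number, by 0.41, 1.69 and 0.62 on a log2 CPM scale with a prior count of 2, but Vhigh replicate 1 was below Vmed replicate 3. Without Vhigh replicate 3 the fitted value was 0.35, and without Vmed replicate 3 it was 1.70.

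*Ldb1* encodes the LIM-domain-binding protein that joins complexes to one another. Its values were 11.1, 37.6 and 40.5 CPM in Vmed and 35.8, 51.2 and 31.4 CPM in Vhigh, so that 5 of the 6 libraries lay between 31.4 and 51.2 CPM and Vmed replicate 1 was apart and low. The log2 fold change of 0.37 (standard error 0.95) became -0.01 without that library. Of all members *Ldb1* had the highest unadjusted p in the quasi-likelihood test, at 0.71, and its approximate 95% interval from -1.75 to 2.49 leaves a difference of several fold in either direction possible.

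*Cbfa2t3* encodes the cofactor that the complex recruits for repression. It was at 2.17, 58.9 and 38.2 CPM in Vmed and at 50.9, 189.1 and 103.6 CPM in Vhigh. Vmed replicate 1 had 19 counts, or 2.17 CPM with an exact Poisson 95% interval from 1.31 to 3.40 CPM that covers counting error only and not the spread between samples. The other 5 libraries had 38.2 CPM or more. Each Vhigh library was above the Vmed library of its number, by 4.43, 1.68 and 1.44 (log2 CPM), while Vhigh replicate 1 was below Vmed replicate 2. The mean was 33.1 ± 28.7 CPM in Vmed and 114.6 ± 69.7 CPM in Vhigh (SD, n = 3). With 1.73 (standard error 0.99, approximate 95% interval -0.46 to 3.92) it had the highest log2 fold change of the members, and without Vmed replicate 1 it was 1.18.

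**Figure D2:**
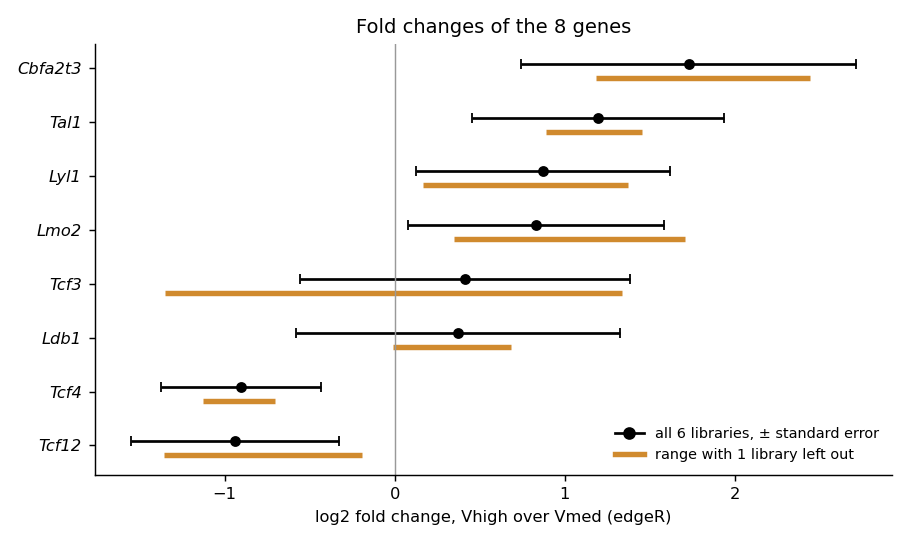
Log2 fold change of Vhigh over Vmed (horizontal axis) for each gene, as black points with bars of 1 standard error from edgeR on all 6 libraries, and in orange the range of the value when each library was left out in turn. The ranges of *Tcf3* and *Ldb1* reach below 0, while those of *Cbfa2t3*, *Tal1*, *Lyl1* and *Lmo2* stay above 0 and those of *Tcf4* and *Tcf12* stay below it.

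Of the 3 E protein genes, *Tcf4* and *Tcf12* had lower means in Vhigh and *Tcf3* a higher mean. *Tcf4* was at 236.0, 319.4 and 156.7 CPM in Vmed and at 109.8, 141.1 and 137.7 CPM in Vhigh. Every Vhigh library was below every Vmed library, as for 4.71% of tested genes and for no other member, and the smallest gap within a pair was -0.19 (log2 CPM), in replicate 3. The mean was 237.4 ± 81.4 CPM in Vmed and 129.5 ± 17.2 CPM in Vhigh (SD, n = 3). In the fit the log2 fold change was -0.90 (standard error 0.47, approximate 95% interval -1.95 to 0.14), and the exact two-sided permutation test gave its smallest possible p of 0.1. *Tcf4* had the smallest unadjusted p of the members in the quasi-likelihood test, 0.085, a value that 3.45% of tested genes matched or passed.

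*Tcf12*, which encodes the E protein HEB, was at 331.9, 76.2 and 153.0 CPM in Vmed and at 81.8, 131.2 and 95.8 CPM in Vhigh. The Vmed libraries enclosed the range of the Vhigh libraries, and Vmed replicate 1 was the highest of all. Its fitted log2 fold change was -0.94 (standard error 0.61) and only -0.19 without that library.

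*Tcf3*, whose products E12 and E47 are well-known partners of TAL1, varied with the replicate number and not with the fraction. It was at 58.8, 27.7 and 158.9 CPM in Vmed and at 29.3, 35.5 and 267.1 CPM in Vhigh. Both libraries numbered 3 were above the other 4, and within Vhigh the highest library was 9.13-fold above the lowest. The log2 fold change of 0.41 (standard error 0.97) became -1.35 without Vhigh replicate 3 and 1.33 without Vmed replicate 3, so that its direction rests on which of these is kept. These are the libraries with the low share of reads outside genes and the high share of *Rn45s*, and the part of this in the *Tcf3*, *Lyl1* and *Lmo2* values was not tested.

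The balance among the E proteins was compared per length, since a longer transcript gives more reads. With RPKM by the merged length of all exons, *Tcf3* made up 32.7, 29.3 and 71.7% of the summed E protein level in Vmed and 43.9, 39.2 and 85.5% in Vhigh. It was higher in Vhigh in each pair, by 11.2, 9.93 and 13.9 percentage points, while the level in replicate 3 of each fraction was far above that in replicates 1 and 2. The difference of the means was 11.7 points, and it was -3.00 points without Vhigh replicate 3, which leaves a pair incomplete. *Tcf4* made up 19.4, 49.8 and 10.4% in Vmed and 24.3, 23.0 and 6.50% in Vhigh, and *Tcf12* the rest. The difference of the *Tcf4* means was -8.59 points and became 3.05 points without Vmed replicate 2, the library with the 49.8% share. *Tcf4* has 27382 bases of merged exons but a longest transcript of 8577 bases. By the longest transcript its mean share was 36.6% in Vmed and 27.5% in Vhigh, in place of 26.5% and 17.9%, so the ranking of the E proteins depends on the length used.

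**Figure D3:**
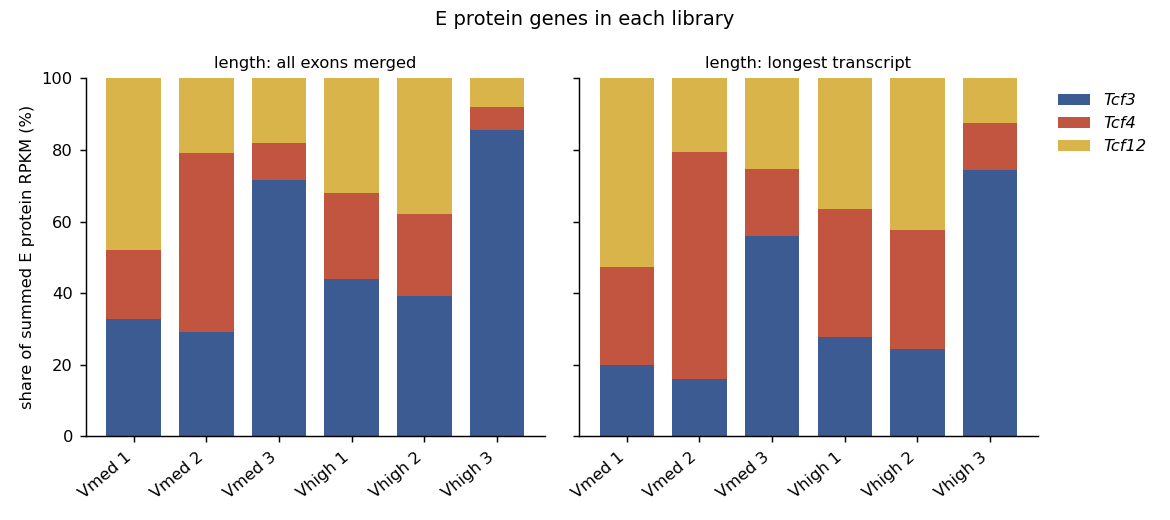
Share (%) of *Tcf3*, *Tcf4* and *Tcf12* in their summed RPKM in each library, with the merged exon length on the left and the longest transcript on the right. In both panels *Tcf3* takes most of the bar in replicate 3 of each fraction, 71.7% and 85.5% on the left, and at most 43.9% in the other 4 libraries.

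The order of the members was also read per length. The mean over the 6 libraries by merged exon length was 46.9 ± 32.6 RPKM for *Lmo2* and 41.4 ± 28.9 RPKM for *Lyl1* (SD, n = 6). *Tcf3* followed at 23.8, *Tal1* at 12.0, *Tcf12* at 9.34, *Cbfa2t3* at 8.82, *Ldb1* at 7.51 and *Tcf4* at 6.70 RPKM. Of the neighbours in this order, only *Lyl1* and *Tcf3* kept their order in 6 of 6 libraries, with a mean difference of 1.14 ± 0.77 on the log2 scale (SD), and in 5 of 6 by the longest transcript. The other neighbours crossed in at least 2 libraries and did not differ beyond their spread. *Lyl1* thus had more RNA per length than *Tal1* in each library, by between 0.65 and 2.52 on the log2 scale, with the smallest gap in Vhigh replicate 1.

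The second comparison asked whether the ratio of 1 partner to another differed between fractions, which a change in total RNA of the complex would leave untouched. For 6 ratios (log2, RPKM) the exact two-sided permutation test gave p between 0.4 and 0.9, with Benjamini-Hochberg values over the 6 between 0.84 and 0.90. With 3 libraries against 3 this test cannot give a p below 0.1, so no ratio could pass 0.05, and the values are read here against their spread. *Cbfa2t3* to *Tal1* was higher in Vhigh in 3 of 3 pairs, at -4.42, 0.03 and -0.98 in Vmed and -1.82, 0.93 and -0.45 in Vhigh, and the difference of the means was 1.34. That difference was 0.03 without Vmed replicate 1, the library with 19 counts of *Cbfa2t3*. *Tcf4* to *Tcf3* was lower in Vhigh in 3 of 3 pairs, with a mean of -0.93 ± 1.77 in Vmed and -1.78 ± 1.67 in Vhigh (SD, n = 3), a difference smaller than the spread within either fraction. The difference was -0.36 for *Lyl1* to *Tal1*, 0.32 for *Lmo2* to *Ldb1* and -0.67 for *Tcf12* to *Tcf3*, and these 3 and *Tcf4* to *Tcf3* each turned in sign when 1 library was left out.

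The ID genes, whose products sequester the E proteins, were next. Summed *Id1* to *Id4* stood to the summed E proteins at 4.63, 4.12 and 2.74 in Vmed and 3.87, 3.21 and 0.49 in Vhigh (log2 ratio of RPKM), lower in Vhigh in 3 of 3 pairs with p = 0.4 by the exact permutation test. The difference of the means was -1.30, and it was -0.29 without Vhigh replicate 3 and -1.97 without Vhigh replicate 1. *Id3* had the highest mean CPM of the 4 genes, at 975.5, 447.3 and 426.6 CPM in Vmed and 241.0, 183.6 and 121.7 CPM in Vhigh. *Id2* was named after its values were seen, at 1330, 296.3 and 211.4 CPM in Vmed and 171.3, 163.1 and 48.9 CPM in Vhigh. For both genes every Vhigh library was below every Vmed library, as for 4.71% of tested genes. An unadjusted p under 0.05 in the quasi-likelihood test was reached by 2.04% of tested genes. The log2 fold change was -1.79 (standard error 0.52) for *Id3* and -2.32 (standard error 0.75) for *Id2* by the quasi-likelihood test, with unadjusted p of 0.0070 and 0.014 and adjusted p of 1.0 each. *Id1* was at 35.0 ± 16.9 CPM in Vmed and 34.6 ± 9.9 CPM in Vhigh (SD, n = 3), and *Id4* was at 10.9 CPM in Vmed replicate 1, at 0 in the other 2 Vmed libraries and between 0.42 and 19.98 CPM in Vhigh.

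**Figure D4:**
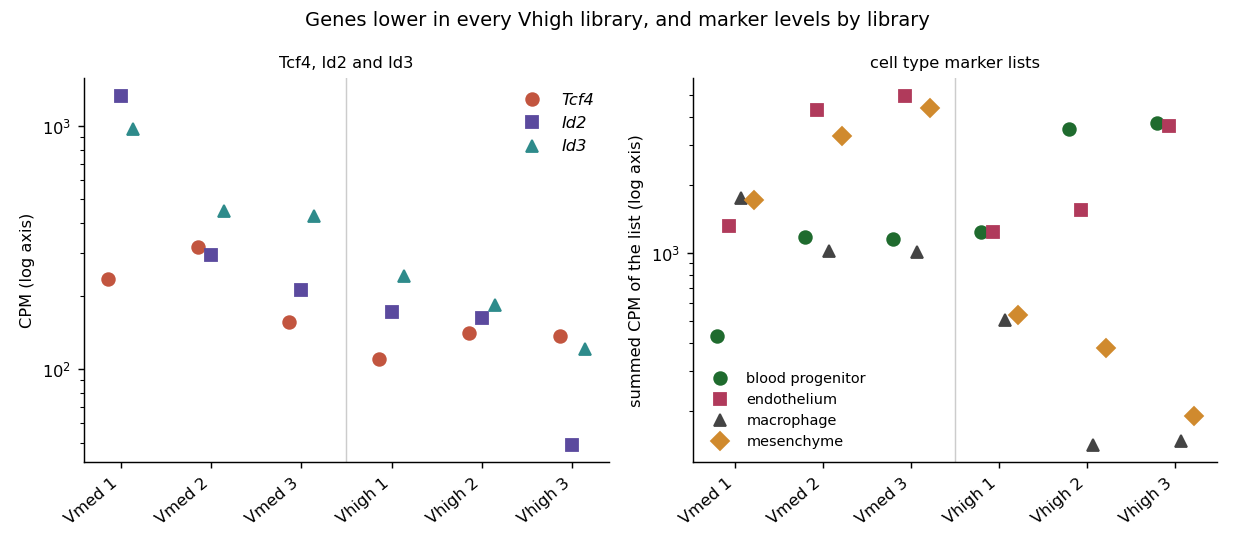
Left, CPM (log axis) of *Tcf4*, *Id2* and *Id3* in each library; right, the summed CPM (log axis) of 4 lists of cell type markers in the same libraries, with points set side by side for legibility. *Tcf4*, *Id2* and *Id3* are each lower in all 3 Vhigh libraries, where the mesenchyme sum is between 190.3 and 532.2 and the macrophage sum between 142.0 and 506.4.

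Markers of other cell types were then compared between the fractions. Of 9 mesenchyme markers 8 had a negative log2 fold change and 5 were lower in every Vhigh library, with a summed level from 1724 to 4389 CPM in Vmed and from 190.3 to 532.2 CPM in Vhigh. Of these markers *Twist1* was at 0 in replicate 3 of both fractions and *Prrx1* in Vhigh replicate 1. All 10 macrophage markers had a negative log2 fold change and 6 were lower in every Vhigh library, with sums from 1013 to 1758 CPM in Vmed and from 142.0 to 506.4 CPM in Vhigh, and with *Adgre1* at 0 in 2 Vhigh libraries. Blood progenitor markers were the reverse, with 11 of 11 positive, 6 of 11 higher in every Vhigh library, and sums from 432.1 to 1182 CPM in Vmed and from 1240 to 3769 CPM in Vhigh. Of 12 endothelial markers 11 had a negative log2 fold change, but the sums overlapped, from 1317 to 4953 CPM in Vmed and from 1245 to 3635 CPM in Vhigh. Of all tested genes, 4.15% were higher and 4.71% lower in every Vhigh library than in every Vmed library. None of these markers passed the threshold, and the part of such cells in the values of *Tcf4*, *Id2*, *Id3*, *Tal1* and *Cbfa2t3* was not tested.

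Next came the factors that share DNA sites with the complex. Of 9 DNA-binding partners, 8 had a positive log2 fold change, as had 6201 of all 12688 tested genes, and 0 passed the threshold. The median was 0.78, the value of *Gata2*. In 3 of 3 pairs 5 were higher, as were 15.2% of tested genes. *Fli1*, an ETS factor and the most abundant of them, was at 358.0, 331.6 and 181.4 CPM in Vmed and at 555.7, 288.9 and 259.7 CPM in Vhigh. *Gata2* itself, on whose reporter the cells were sorted, was at 50.3, 29.4 and 68.4 CPM in Vmed and at 39.2, 82.5 and 142.2 CPM in Vhigh, higher in 2 of 3 pairs, and the fitted value was 0.78 on the log2 scale (standard error 0.73). *Runx1* and *Gfi1b*, named after their values were seen, were the 2 partners with every Vhigh library above every Vmed library, as for 4.15% of tested genes. Their log2 fold changes were 2.12 (standard error 0.87) and 2.12 (standard error 0.91). The list of blood progenitor markers also holds *Runx1* and *Gfi1*.

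Of 12 genes known as targets of the complex, 9 were tested and 0 passed the threshold. Of these 9, 8 had a positive log2 fold change, as had 6201 of all 12688 tested genes. The median was 1.91, the value of *Kit* itself, and the values ran from -0.03 (*Hhex*) to 5.26 (*Myb*). In 3 of 3 pairs 6 were higher, as were 15.2% of tested genes. *Mef2c*, the most abundant, was at 137.7, 503.6 and 145.2 CPM in Vmed and at 273.7, 614.8 and 324.0 CPM in Vhigh. *Kit*, a target that was also a gate of the sort, was at 64.1, 207.5 and 59.1 CPM in Vmed and at 254.5, 490.3 and 520.8 CPM in Vhigh. *Myb*, *Nfe2* and *Kit* were the 3 targets whose fractions did not overlap, and all were higher in Vhigh, the first and second being named after their values were seen. Every Vhigh library was above every Vmed library for 4.15% of tested genes. The list of blood progenitor markers also holds *Kit*, *Myb* and *Itga2b*, so the counts of the 2 lists are not separate. *Myb*, which encodes a factor of definitive blood progenitors, was at 1.83, 1.33 and 5.97 CPM in Vmed and 73.3, 198.5 and 104.3 CPM in Vhigh.

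Cofactors and relatives of the members gave no call either. Of 13 coregulators that the complex recruits, 9 had a positive and 4 a negative log2 fold change, with a median of 0.18 and no gene whose fractions separated. *Smarca4*, the ATPase of the SWI/SNF remodeller and the most abundant of them, was at 103.1, 130.3 and 391.1 CPM in Vmed and at 27.6, 173.8 and 528.7 CPM in Vhigh, highest in replicate 3 as *Tcf3* was. Of the 4 genes for LDB1-binding Ssbp proteins and its ubiquitin ligase RLIM, 2 had a positive and 2 a negative log2 fold change, with a median of -0.22. *Rlim* was at 288.2 ± 93.8 CPM in Vmed and 193.0 ± 56.5 CPM in Vhigh (SD, n = 3). Of 9 paralogues of the members 5 were tested, 3 with a positive and 2 with a negative log2 fold change and a median of 0.11. *Ldb2*, a close relative of *Ldb1* known from endothelium, was the most abundant at 39.4, 174.8 and 156.5 CPM in Vmed and 189.6, 74.7 and 127.5 CPM in Vhigh.

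Among the members, *Tal1* and *Tcf4* ran opposite to each other across the 6 libraries, with Pearson's r = -0.88 of log2 CPM, and *Ldb1* and *Cbfa2t3* ran together with r = 0.93. *Lyl1* correlated with *Tcf3* at 0.86 and with *Lmo2* at 0.78. These are descriptions over 6 libraries that share fraction and replicate structure, and Vmed replicate 1 was the lowest library for both *Ldb1* and *Cbfa2t3*.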

How the data were processed

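RNA from sorted cells was made into cDNA by the SMARTer protocol and sequenced as single reads on a HiSeq2500. The authors aligned reads with TopHat and Bowtie 1.1.2 (GRCm38/mm10), counted them with HTSeq, per the labels' processing notes, and deposited raw counts per gene, not normalized. The annotation and strand setting are not given in the sources used here. It is thus not known how reads over exon bases shared with genes on the opposite strand were assigned. These are 4 bases for *Lyl1*, 177 for *Ldb1* and 295 for *Cbfa2t3*, and only the gene opposite *Cbfa2t3* was not itself counted. Lines of unassigned reads were left out of totals.

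Genes were filtered by filterByExpr, scaled by TMM and compared with edgeR 4.0.16 in R 4.3.3 by the quasi-likelihood test, with Benjamini-Hochberg adjustment at 0.05. Intervals of log2 fold changes are the standard error times a t quantile and are approximate. CPM used the deposited gene totals, and log2 CPM a prior count of 2. RPKM used GENCODE exon lengths, which matched 22750 of 24062 symbols directly and 935 through older symbols. Single values were compared by exact permutation over all 20 arrangements of the 6 libraries. The scripts were tested on simulated data.

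Named genes were the 8 members, the most abundant gene of each related list, *Kit*, *Pecam1*, *Gata2*, and the 3 genes most like *Tal1* and *Tcf4*. Other genes, such as *Id2*, *Runx1*, *Nfe2*, *Erg* and the markers listed at 0, were named after their values were seen. The members were chosen by name, but they, the lists and the alternatives were set with earlier results of these data known. Libraries with the same number deviated together (r = 0.21, 0.21 and 0.39, against -0.29 to -0.01 for other pairs), so the numbers, taken from the sample titles, were treated as pairs in an alternative fit with the replicate as a block.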

Additional observations from a re-analysis of the deposited data

How the results depend on the processing

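The quasi-likelihood test called 0 genes, with 259 at an unadjusted p under 0.05. The count was 37 with no filter beyond 1 count, 21 by edgeR's likelihood ratio test, 14 by its exact test and 51 by DESeq2 (1.42.0), and from 0 to 1 with a library left out, the single call coming without Vhigh replicate 1. With the replicate block, 0 genes passed by quasi-likelihood and 74 by the likelihood ratio test. The block thus left the count by quasi-likelihood at 0, while that by the likelihood ratio test rose from 21 to 74. With the block, the quasi-likelihood fit gave *Cbfa2t3* 2.41 on the log2 scale (standard error 0.76, unadjusted p = 0.031, adjusted p = 0.99). For *Tcf4* it gave -0.86 (standard error 0.33, unadjusted p = 0.044). In that fit 528 of 12688 genes had an unadjusted p under 0.05. By the likelihood ratio test with the block *Cbfa2t3* had an unadjusted p of 0.011, and 755 genes were under 0.05. No member passed the threshold in any of 20 alternatives, and the smallest adjusted p of a member was 0.47, for *Cbfa2t3* in the block by the likelihood ratio test. *Tal1*, *Lyl1*, *Lmo2*, *Cbfa2t3*, *Tcf4* and *Tcf12* kept their direction in all 20.

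The log2 fold change of *Tcf3* was -0.0046 by limma-voom and from -1.35 to 1.33 with a library left out, and was -0.06 without Vmed replicate 2. That of *Ldb1* was from -0.0092 to 0.68. Ratios ranged from -0.86 to 0.0754 (*Lyl1* to *Tal1*), -0.28 to 0.91 (*Lmo2* to *Ldb1*, also -0.15 without Vmed replicate 2), -1.78 to 0.11 (*Tcf4* to *Tcf3*) and -1.34 to 0.38 (*Tcf12* to *Tcf3*). The upper end was without Vhigh replicate 1 for *Lyl1* to *Tal1* and without Vhigh replicate 3 for the last 2, and the lower end for *Lmo2* to *Ldb1* was without Vhigh replicate 3. The cause was not tested. Normalization by RLE, upper quartile or library size moved the median of all genes to between -0.05 and 0.02. The values with TMM-scaled totals were added after seeing the data and left the overlap and pair counts of all members as they were.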

Other observations

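Across the 6 libraries, 23 of 12687 other tested genes had a Pearson's r over 0.95 with *Tal1* in log2 CPM. The 3 most like it were *Rpl27* (0.99), *9130401M01Rik* (0.99) and *Zfp36l2* (0.98), which encodes an RNA-binding protein that promotes mRNA decay. *Zfp36l2* was at 20.02, 19.2 and 35.1 CPM in Vmed and at 111.7, 39.0 and 66.1 CPM in Vhigh. *Rpl27*, a ribosomal protein gene with near-identical copies in the genome, was low throughout, between 6.29 and 16.5 CPM, so its level is uncertain. For *Tcf4*, 10 genes passed 0.95. *Dync1i2* (0.98), a subunit of cytoplasmic dynein, was at 333.2, 434.6 and 244.7 CPM in Vmed and at 146.6, 214.9 and 215.9 CPM in Vhigh. *Bsdc1* (0.98) and *Mfge8* (0.97), which encodes a secreted protein that marks dying cells for uptake, followed it. With 6 points and so many genes such values are a description of these libraries.

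Some cofactors of the complex were near the detection limit in single libraries, and were named after their values were seen. *Crebbp*, a histone acetyltransferase, had 1 count in Vhigh replicate 1 (0.094 CPM) and between 470 and 1453 counts in the other 5 libraries. *Rcor1*, which holds the demethylase KDM1A in its complex, had 4 counts in that library and up to 738 elsewhere. *Ep300* was at 2.25 CPM there and at 27.9 CPM or more in the others. Vhigh replicate 1 had the fewest genes detected, 10427, against 12709 to 18460 in the other libraries, although its gene total of 10660122 was not the lowest. In Vmed replicate 1, *Erg* had 1 count and *Cbfa2t3* 19, while the other 5 libraries had between 121 and 471 counts of *Erg*.

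Lists of further blood lineages were also read. Of 8 megakaryocyte markers 5 had a negative log2 fold change, among them *Pf4*, at 477.0, 381.2 and 150.4 CPM in Vmed and 132.5, 18.2 and 13.0 CPM in Vhigh. Of 9 erythroid markers 6 were tested, 1 with a positive and 5 with a negative log2 fold change and a median of -0.85. The adult globin gene *Hba-a1* had 0 counts in all libraries, which does not show that its RNA was absent. Of 8 mast cell and basophil markers 2 were tested, and they differed in direction. The log2 fold change was 3.58 (standard error 1.61) for *Cpa3* and -1.05 (standard error 1.31) for *Hdc*. *Cma1* was at 0 in all libraries.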
